A study of Mus musculus with 4 samples.

Results

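Mouse pituitary macrophages that carried at least 1 unique molecular identifier (UMI, the tag that marks 1 captured RNA molecule) of Mrc1, Cd163, Lyve1 or F13a1 are described here. They numbered 607 of the 40406 cell barcodes in the pooled matrix, and 30.2% of the 2013 macrophages in it (exact Clopper-Pearson 95% interval 28.2 to 32.2%). A barcode counted as a macrophage when it had at least 500 UMIs, at most 25% mitochondrial UMIs, at least 3 of the 6 genes C1qa, C1qb, C1qc, Csf1r, Cx3cr1 and Aif1 detected, and less than 25% of its UMIs from Gh. The 4 genes Mrc1, Cd163, Lyve1 and F13a1 are called the gate genes. Macrophages with a gate UMI are called gate-positive, and the 1406 macrophages without one are called gate-zero. The cells were chosen by their counts of these 10 genes, of Gh and of the mitochondrial genes, so their levels are given as a description.

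The cells came from whole pituitaries of male mice, 4 weeks old at the start, after 12 weeks on a high-fat diet (HFD, 2 libraries) or a normal diet (ND, 2 libraries), with 3 glands pooled in each library. No strain is named in the labels, no allele or Cre line is named, and enzyme digestion to single cells preceded 3′ droplet libraries in both groups. The labels also give the gonadotroph line Lbt2 and the cell type gonadotroph for every library, whereas the barcodes held the hormone cell types of the gland, with macrophages at 5.03% of the 40044 barcodes that passed the UMI and mitochondrial filter. The matrix pools the libraries, and its barcodes carry suffixes 1 to 4, for which no label names the library or the diet. It therefore counts as 1 pooled sample: the diets were not compared, no test was made, and the suffixes serve as 4 barcode sets that show how far a value moved. Intervals on levels are exact Poisson intervals that cover counting error only.

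Macrophages of a gland engulf debris and foreign material, digest it in lysosomes, recycle iron and lipid, and release signals to neighbouring cells. Mrc1 encodes the mannose receptor CD206, which takes up glycoproteins. Cd163 encodes the receptor that clears haemoglobin bound to haptoglobin, Lyve1 a hyaluronan receptor that lymphatic endothelium also carries, and F13a1 the A subunit of clotting factor XIII, which monocytes express as well. In the mouse brain and its borders, macrophages along vessels are recognised by these genes together with Pf4, Stab1 and Cbr2, and microglia by P2ry12, Tmem119 and Sall1.

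The gate was carried almost entirely by Mrc1. Mrc1 was detected in 590 of the 607 gate-positive cells (97.2%), with 987 UMIs, and was the only gate gene in 567 of them. Its level in gate-positive cells was 228, 233, 283 and 327 CPM (counts scaled to a total of 1e6 UMIs) in barcode sets 1 to 4, and 261 CPM over all sets. These cells held 88.0% of all Mrc1 UMIs in the matrix. F13a1 was detected in 27 gate-positive cells (4.45%, 90 UMIs), with levels of 26.0, 32.3, 19.3 and 10.9 CPM in sets 1 to 4. Cd163 was detected in 13 cells (2.14%, 21 UMIs), at 11.9, 2.31, 7.22 and 1.37 CPM, and set 1 held 11 of its UMIs. Lyve1 was detected in 4 cells (0.659%, 6 UMIs) and in none of set 1.

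Barcodes with at least 25% of their UMIs from Gh, taken as growth hormone cells that should lack all 4 genes, served as a comparison for stray RNA. Among those 14614 barcodes, with a median of 10502.5 UMIs against 4725 in gate-positive cells, Mrc1 was detected in 0.315%, F13a1 in 0.0137% and Cd163 in 0.00684%. Of the 149 with any gate UMI, 27 also met the macrophage gene criterion, so stray RNA and doublets cannot be told apart there. Lyve1 was detected in 0.691% of the growth hormone barcodes, close to its 0.659% in gate-positive cells, so that share is not read as expression. As a level, Lyve1 was at 1.59 CPM in gate-positive cells, from 6 UMIs in cells chosen partly by it, and at 0.626 CPM in the growth hormone barcodes. Outside macrophages lay 97.1% of Lyve1 UMIs, compared with 12.0% of Mrc1 UMIs. Since the gate genes chose the cells, they are no check of a perivascular label. The genes outside the rule, given further on, were mixed in that respect, so the cells are called by their rule.

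**Figure D1:**
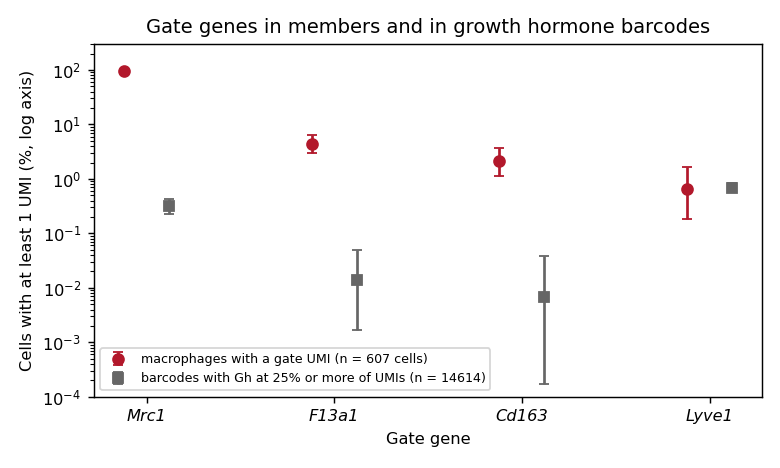
Share of cells with at least 1 UMI of each gate gene (%, log axis) in the 607 gate-positive macrophages and in the 14614 barcodes with Gh at 25% or more of UMIs, with exact 95% Clopper-Pearson intervals. Mrc1 reached 97.2% in gate-positive cells by the choice of cells, and Lyve1 had 0.659% there and 0.691% in the Gh barcodes.

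Most gate-positive cells met the rule by a single molecule. The gate genes summed to 1 UMI in 371 cells, 2 in 148, 3 in 36, 4 in 20 and 5 or more in 32, with a maximum of 20. The gate-positive count was 141, 180, 152 and 134 in sets 1 to 4, which is 30.7, 34.0, 29.1 and 26.6% of each set's macrophages. The share ran with depth: 6.12% of macrophages with 500 to 999 UMIs were gate-positive, 12.7% of those with 1000 to 1999, 31.3% of those with 2000 to 3999 and 40.7% of those with 4000 to 7999. It was 31.0% in barcodes of 8000 to 15999 UMIs and 36.7% at 16000 or more. In those 2 deepest classes the 3 C1q genes together were at 4216 and 1973 CPM, against 12840 CPM at 4000 to 7999 UMIs, and hormone genes made up 10.3 and 11.9% of UMIs, against 3.29%. When each gate-positive cell was thinned to 1000 UMIs, 33.7% of the 590 deep enough still showed a gate UMI. A gate UMI of 0 in a shallow macrophage and a lower Mrc1 level cannot be told apart.

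**Figure D2:**
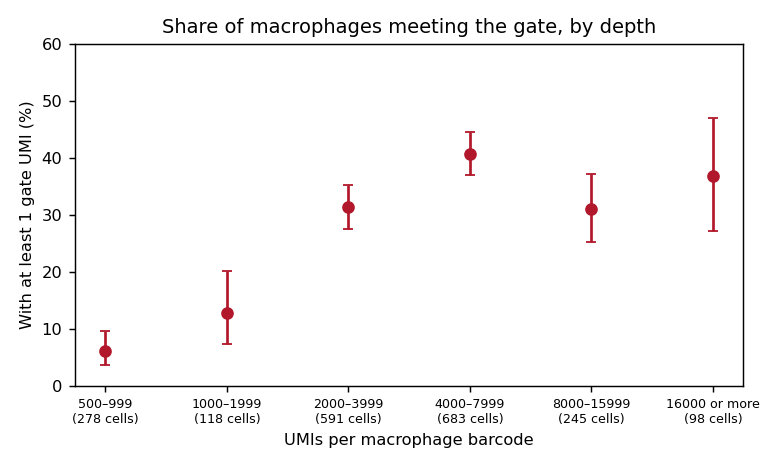
Share of macrophages with at least 1 gate UMI (%) by the number of UMIs of the barcode, with exact 95% Clopper-Pearson intervals and the number of macrophages under each class. The share was 6.12% at 500 to 999 UMIs and 40.7% at 4000 to 7999 UMIs.

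Gate-positive cells were deeper and held a smaller share of hormone RNA than gate-zero cells. Their median was 4725 UMIs and 1829 genes, against 3713 UMIs and 1556.5 genes in gate-zero cells, and 17 against 261 cells had fewer than 1000 UMIs. The 7 hormone genes took 5.63% of UMIs in gate-positive cells and 7.60% in gate-zero cells. Scrublet, a doublet caller, marked 72 gate-positive cells (11.9%) and 173 gate-zero cells (12.3%), against 7.62% of all barcodes that passed the filter. Marked cells were kept. Of 40249 barcode sequences, 156 occurred in more than 1 set. Of these, 4 belonged to gate-positive cells, and none was a macrophage in 2 sets.

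At the borders of the rule, 16 of 199 barcodes with exactly 3 of the 6 macrophage genes were gate-positive, and 15 of 247 barcodes with 2 of them, just outside, also had a gate UMI. With all 6 genes detected, 479 of 1206 barcodes were gate-positive. Gh took 20 to 25% of UMIs in 6 gate-positive cells, and 9 barcodes that met every other criterion were left out with Gh at 25 to 30%. The 6 macrophage genes themselves were all higher in gate-positive than in gate-zero cells in all 4 sets, from Aif1 (log2 ratio 0.31) to Csf1r (0.63). By the mean of per-cell CPM, Aif1 turned to -0.15 and C1qb was at 0.09, while the other 4 were at 0.17 to 0.55. C1qa, a subunit of complement C1q, had 3449, 4111, 4347 and 4158 CPM in gate-positive cells of sets 1 to 4, against 2517, 2789, 3718 and 3117 CPM in gate-zero cells.

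Beyond the rule, the level of each gene in gate-positive cells was compared with that in gate-zero cells as a log2 ratio of CPM from summed UMIs. A gene was called when its pooled level differed by at least 2-fold, the direction was the same in each of the 4 barcode sets at any size, and it had at least 50 UMIs over both groups. By this description of size, 41 of 12039 genes (0.341%) were called higher in gate-positive cells and 233 (1.94%) lower. In 3.64% of the tested genes every gate-positive set lay above every gate-zero set, without overlap. The median log2 ratio of all tested genes was -0.08. Genes called higher had a median of 172 UMIs over both groups, and genes called lower a median of 97, with 122 of the 233 below 100 UMIs. Among macrophages of 2000 to 8000 UMIs, 24 of 8658 tested genes were called higher, 13 of them shared with the 41. After every macrophage was thinned to 1000 UMIs and gated again, 49 of 4864 were called higher, 6 of them shared with the 41.

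**Figure D3:**
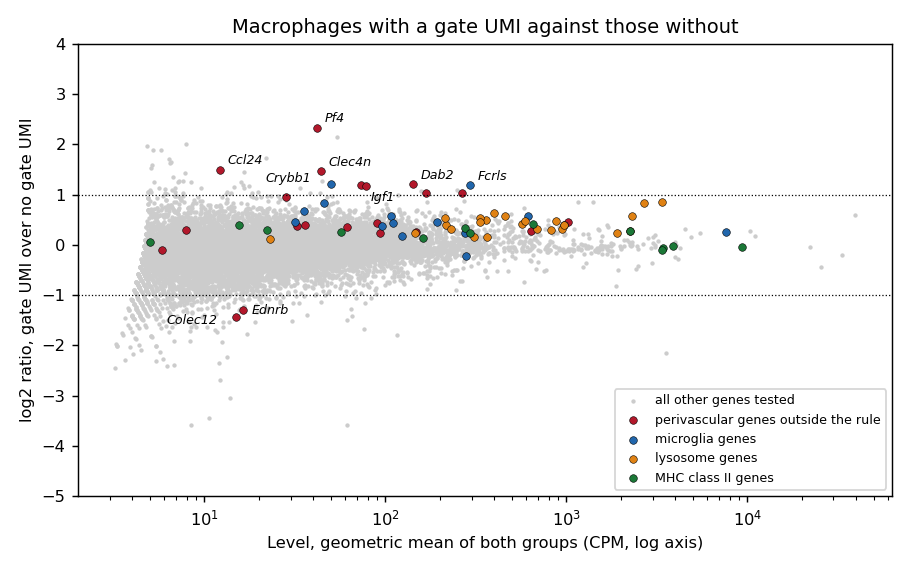
log2 ratio of gate-positive over gate-zero macrophages against the level of each of the tested genes (geometric mean of both groups, CPM, log axis), with 4 gene lists in colour and dotted lines at 2-fold. Pf4 stands at 2.33 and the perivascular genes outside the rule spread widely, while lysosome and microglia genes sit mostly above 0 and below the upper line. Igkc, Igha and Jchain, 3 antibody chain genes, fall below the plotted range.

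Pf4, the chemokine platelet factor 4, had the highest ratio of all genes called higher. It had 70.3, 124, 80.7 and 86.2 CPM in gate-positive cells of sets 1 to 4, against 18.2, 19.9, 14.3 and 21.9 CPM in gate-zero cells. The groups did not overlap, as in 3.64% of all tested genes, and the log2 ratio was 2.33 with a counting standard error of 0.15. Pf4 was detected in 136 gate-positive cells (22.4%), 98 gate-zero cells (6.97%) and 0.130% of growth hormone barcodes. Over the 17 alternative settings tried, its log2 ratio lay between 1.96 and 4.14, and it was called in every one of them.

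The start regions of Mrc1, which defines most of the cells, and of Pf4 and Cd5l, which had the highest ratios among the named genes with a window, are printed to show what lies before them. They are the 250 bases before each gene's start from RefSeq (GRCm38.p6, all on the + strand): Mrc1 at chr2:14229164-14229413, Pf4 at chr5:90772185-90772434 and Cd5l at chr3:87357631-87357880. Capitals mark GAGGAAG or its reverse complement CTTCCTC, a purine-rich stretch of the kind read by ETS factors, among them PU.1, the product of Spi1 that myeloid cells require.
Mrc1: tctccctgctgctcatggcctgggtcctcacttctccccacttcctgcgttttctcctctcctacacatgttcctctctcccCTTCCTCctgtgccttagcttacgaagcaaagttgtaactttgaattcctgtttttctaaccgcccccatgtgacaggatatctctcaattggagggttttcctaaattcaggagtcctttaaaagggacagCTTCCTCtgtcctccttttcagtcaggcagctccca
Pf4: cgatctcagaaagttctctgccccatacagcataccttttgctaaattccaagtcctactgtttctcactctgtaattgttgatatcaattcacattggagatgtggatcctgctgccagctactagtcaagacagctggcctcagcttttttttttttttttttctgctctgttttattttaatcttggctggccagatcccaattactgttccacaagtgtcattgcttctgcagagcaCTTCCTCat
Cd5l: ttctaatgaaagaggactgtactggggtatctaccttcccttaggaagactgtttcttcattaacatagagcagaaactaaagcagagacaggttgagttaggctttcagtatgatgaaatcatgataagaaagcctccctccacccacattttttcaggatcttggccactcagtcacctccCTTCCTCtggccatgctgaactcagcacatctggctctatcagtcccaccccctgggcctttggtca
Mrc1 held 2 matches, Pf4 and Cd5l 1 each. The letters occurred in 10.6% of all 32851 such windows, with both strands searched and overlapping matches allowed. Of the 17 named genes called higher, 9 had a window, and 4 of these genes (Cd5l, Fcrls, Igf1 and Pf4) held the letters. That count is of genes, over any of their windows, so it cannot be set against the share of windows. The motif and the 3 windows were chosen after the values and sequences had been seen, so the match is a description. Spi1 itself was at 235 CPM in gate-positive and 175 CPM in gate-zero cells (log2 ratio 0.42), higher in all 4 sets and not called.

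Of 32 genes listed for perivascular and border macrophages outside the rule, 21 had enough UMIs. Among them 8 were called higher in gate-positive cells (Pf4, Stab1, Ccl24, Dab2, Maf, Igf1, Slc40a1 and Clec4n), 2 were called lower (Colec12 and Ednrb), and the list's median log2 ratio was 0.43. Over all tested genes the shares were 0.341% higher and 1.94% lower. The gene lists here and below were chosen with earlier results of these data known, so their counts are a description. Stab1, a scavenger receptor of vessel-associated macrophages, had 216, 273, 214 and 234 CPM in gate-positive cells, against 106, 115, 136 and 112 CPM in gate-zero cells. Dab2, an adaptor for clathrin uptake, had 249, 181, 244 and 207 CPM in gate-positive cells, against 114, 91.0, 84.6 and 84.6 CPM in gate-zero cells. Neither gene overlapped between the groups, as in 3.64% of all tested genes, and their log2 ratios were 1.03 and 1.21. Stab1 was called in 12 and Dab2 in 16 of the 17 alternative settings. Clec4n, the fungal sugar receptor Dectin-2, had 75.7, 62.4, 87.9 and 71.2 CPM in gate-positive cells, against 32.6, 14.8, 34.2 and 27.4 CPM in gate-zero cells. Without barcode set 2 the list's count called higher was 5, as Stab1, Maf and Slc40a1 fell short of 2-fold, with log2 ratios of 0.91, 0.95 and 0.85. After thinning it was 4 (Pf4, Cp, Slc40a1 and Clec4n), with at least 2 gate UMIs 9, and with at least 3 it was 12, which added Cbr2, Ccl8, Gas6 and Cd38.

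Other defining genes of the perivascular list were sparse in gate-positive cells. Cbr2, a carbonyl reductase, had 33 UMIs in gate-positive and 51 in gate-zero cells (8.72 and 7.06 CPM), and Folr2, the folate receptor beta, had 18 and 19 UMIs. Of the 33 Cbr2 UMIs, 18 lay in the 88 cells with at least 3 gate UMIs, where Cbr2 was at 30.9 CPM (18.3 to 48.8). By gate gene, 17 of the 33 lay in the 27 cells with F13a1, and the 64 cells with at least 3 Mrc1 UMIs and no other gate gene held 1. Cd209f, Cd209d, Cd209b, Cd209g, Vsig4 and Marco had no UMI in gate-positive cells, which allows up to 0.793 CPM each (3 counts over the group). Ms4a7, a membrane gene of macrophages that are not microglia, was abundant in both groups, at 1196 CPM in gate-positive and 877 CPM in gate-zero cells (log2 ratio 0.45). Colec12, a scavenger receptor that vessel-lining and stromal cells also express, went the other way, at 8.98 CPM in gate-positive and 24.2 CPM in gate-zero cells.

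Microglia genes were not lower in gate-positive cells. Of 16 listed, 15 were tested, 2 were called higher (Fcrls and Crybb1) and 0 lower, compared with 0.341% and 1.94% of all tested genes. In all 4 sets 10 were higher at any size, compared with 9.96% of all tested genes. The list's median log2 ratio was 0.46. Fcrls, a scavenger-receptor-like gene of mouse microglia, had 401, 441, 521 and 420 CPM in gate-positive cells, against 184, 155, 251 and 206 CPM in gate-zero cells (log2 ratio 1.19). Crybb1, a lens crystallin gene also known from microglia, had 67.1, 83.2, 65.0 and 86.2 CPM in gate-positive cells, against 29.8, 21.2, 54.1 and 29.8 CPM in gate-zero cells. Neither gene overlapped between the groups, as in 3.64% of all tested genes. Of the 17 alternative settings Fcrls was called in 14 and Crybb1 in 11. P2ry12, the purine receptor that guides microglial processes, was at 60.8 CPM in gate-positive and 34.2 CPM in gate-zero cells, and Tmem119 at 129 and 95.2 CPM. The 6 macrophage genes of the rule had a median of 0.43, near both list medians, which moved apart under a stricter gate. With at least 2 gate UMIs the median was 1.00 over the perivascular list and 0.49 over the microglia list, and with at least 3 it was 1.31 and 0.07. By the mean of per-cell CPM it was 0.78 and 0.28. The class with at least 3 also held cells with gate genes other than Mrc1. In cells with Mrc1 alone, the microglia list summed to 12520, 13848 and 11576 CPM at 1, 2 and 3 or more Mrc1 UMIs. Its sum in gate-zero cells was 9738 CPM. The perivascular list summed to 3527, 4132 and 4512 CPM in the same order, against 2506 CPM in gate-zero cells.

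**Figure D4:**
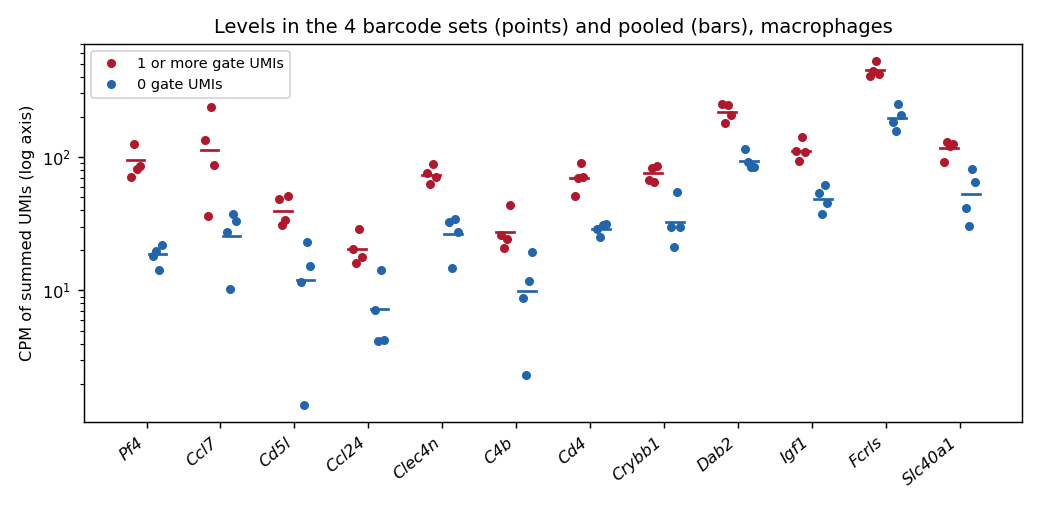
CPM (log axis) of 12 genes called higher, in gate-positive (left of each pair) and gate-zero macrophages (right of each pair). Points are the 4 barcode sets and bars the pooled level, and Pf4 has 70.3 to 124 CPM in gate-positive and 14.3 to 21.9 CPM in gate-zero cells.

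Among 25 tested cytokine and chemokine genes, 5 were called higher in gate-positive cells (Il10, Ccl2, Ccl7, Ccl24 and Pf4) and 0 lower, with a median log2 ratio of 0.39. Of all tested genes, 0.341% were called higher and 1.94% lower. Ccl7, a chemokine that attracts monocytes, had 133, 36.2, 235 and 87.6 CPM in gate-positive cells, against 27.6, 10.2, 37.3 and 32.9 CPM in gate-zero cells. It was higher within each set (log2 ratio 2.14), although the lowest gate-positive set lay below the highest gate-zero set. Ccl2, a related monocyte attractant, had 263, 131, 279 and 294 CPM in gate-positive cells, against 152, 76.2, 110.1 and 98.6 CPM in gate-zero cells. Ccl24, an eosinophil attractant, had 20.6, 16.2, 28.9 and 17.8 CPM in gate-positive cells, against 7.18, 4.16, 14.3 and 4.26 CPM in gate-zero cells. Il10, which restrains inflammation, rested on 42 UMIs in gate-positive and 26 in gate-zero cells. The inflammatory genes Tnf (268 and 229 CPM) and Il1b (1345 and 1149 CPM) were close between gate-positive and gate-zero cells, and neither was called.

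Uptake and recycling genes had mostly small positive ratios. Of 18 scavenger and endocytic genes, 3 were called higher (Stab1, Dab2 and Cd5l) and 1 lower (Colec12), beside 0.341% and 1.94% of all tested genes. At any size, 10 of these 18 and 10 of 16 iron and heme genes were higher in all 4 sets. The share of all tested genes was 9.96%. Cd5l, a secreted scavenger-family protein of tissue macrophages, had 48.7, 30.8, 33.7 and 50.6 CPM in gate-positive cells, against 11.6, 1.39, 23.0 and 15.2 CPM in gate-zero cells. It came from few cells, 35 gate-positive (5.77%) and 26 gate-zero (1.85%). Of 16 iron and heme genes, Slc40a1, the iron exporter ferroportin, was the only call. It had 92.0, 129, 122 and 125 CPM in gate-positive cells, against 41.4, 30.5, 80.9 and 65.2 CPM in gate-zero cells. Hmox1, which breaks down heme, was at 322 CPM in gate-positive and 206 CPM in gate-zero cells (log2 ratio 0.65), and Blvrb, a biliverdin reductase, at 227 and 126 CPM.

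None of 24 lysosome genes was called, beside 0.341% of all tested genes called higher and 1.94% lower. Yet 21 of the 24 were higher in gate-positive cells in all 4 sets, compared with 9.96% of all tested genes. The list's median log2 ratio was 0.41. Ctsd, the protease cathepsin D, was at 3601 CPM in gate-positive and 2030 CPM in gate-zero cells, and Lyz2, lysozyme, at 4541 and 2517 CPM. Of 22 lipid genes none was called, beside the same shares. In all 4 sets 7 were higher and 2 lower at any size, compared with 9.96% and 18.7% of all tested genes. Apoe, which carries lipid out of macrophages, was at 48896 CPM in gate-positive and 32179 CPM in gate-zero cells (log2 ratio 0.60). Per cell, Apoe took a median of 5.48% of UMIs in the 590 gate-positive cells with at least 1000 UMIs and 3.16% in the 1145 such gate-zero cells.

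The summed level of antigen presentation genes was close between the groups. Of 13 tested MHC class II pathway genes, 0 were called, compared with 0.341% of all tested genes called higher and 1.94% lower. In all 4 sets 5 were higher and 0 lower at any size, compared with 9.96% and 18.7% of all tested genes. The list's median log2 ratio was 0.24. The full list summed to 23870 CPM in gate-positive and 23824 CPM in gate-zero cells. H2-Aa, a class II chain, was at 3847 CPM in gate-positive and 3910 CPM in gate-zero cells, and its partner Cd74 at 9269 and 9566 CPM. The class varied more among cells than between the groups: between the lower and upper quartile, the share of class II genes ran from 0.637 to 5.10% of UMIs in gate-positive cells and from 0.521 to 6.02% in gate-zero cells.

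Among 24 macrophage transcription factor genes, 3 were called higher in gate-positive cells (Maf, Tfec and Spic) and 0 lower. The shares of all tested genes were 0.341% and 1.94%. Maf, which holds macrophages in a differentiated state, had 339, 343, 459 and 401 CPM in gate-positive cells, against 162, 138, 239.5 and 221 CPM in gate-zero cells. Spic, known from iron-recycling macrophages of the mouse spleen, had 47.6, 38.5, 54.2 and 68.4 CPM in gate-positive cells, against 30.9, 12.5, 19.3 and 30.4 CPM in gate-zero cells. Of the 17 alternative settings, Maf was called in 11 and Spic in 14. Tfec rested on 32 UMIs in gate-positive and 21 in gate-zero cells. Maf shares its locus with Gm15655 on the opposite strand, Stab1 with Nt5dc2 and Dab2 with Gm18888. The same holds for the gate gene F13a1 with Gm30489 and for Prox1 with Prox1os. It also holds for the macrophage genes Csf1r with Hmgxb3 and Cx3cr1 with Gm33858. The strand setting of the counting is not given in the sources used here. Gm15655 was itself called higher, with 43 UMIs in gate-positive and 26 in gate-zero cells.

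Igf1, C4b, Cd4 and Gdf15 were also named by the rule. Igf1, a growth factor, had 110.3, 93.9, 141 and 109 CPM in gate-positive cells, against 54.1, 37.4, 61.6 and 45.1 CPM in gate-zero cells (log2 ratio 1.19), and it was detected in 9.25% of growth hormone barcodes as well. After thinning, the log2 ratio was 0.20 for Igf1, 0.47 for C4b, 0.78 for Cd4 and 0.53 for Gdf15, all below 2-fold. C4b, a complement component, had 26.0, 20.8, 24.1 and 43.8 CPM in gate-positive cells, against 8.83, 2.31, 11.8 and 19.5 CPM in gate-zero cells. Cd4, the helper T cell co-receptor that some mouse macrophages also express, had 50.8, 69.3, 90.3 and 71.2 CPM in gate-positive cells, against 28.7, 24.9, 31.1 and 31.7 CPM in gate-zero cells. T cell and NK genes summed to 19.8 CPM in gate-positive and 8.86 CPM in gate-zero cells. Gdf15, a stress-induced cytokine, had 379, 346, 325 and 428 CPM in gate-positive cells, against 182, 136, 183 and 192 CPM in gate-zero cells. None of these 4 genes overlapped between the groups, as in 3.64% of all tested genes, C4b only narrowly. They were named for large ratios in 1 direction in 4 sets, so this is a description.

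Several of these genes were at higher levels in cells with more Mrc1 UMIs. The 567 cells with Mrc1 as their only gate gene were split into 360 with 1 Mrc1 UMI, 143 with 2 and 64 with 3 or more, and set beside the gate-zero cells. Pf4 was at 18.7 CPM with 0 Mrc1 UMIs, 49.9 with 1, 62.0 with 2 and 134 with 3 or more. Fcrls was at 195, 425, 492 and 623 CPM in the same order, Dab2 at 93.8, 186, 218 and 309 CPM, and Cd5l at 11.9, 28.8, 56.6 and 91.1 CPM. The last Cd5l value came from 4.69% of the 64 cells, against 7.69% of the cells with 2 Mrc1 UMIs, and 1 set had none. Slc40a1 and Igf1 also had their highest levels at 3 or more. Clec4n, Crybb1 and Tmem119 had their highest level at 2 Mrc1 UMIs, with 92.5, 100.1 and 174 CPM, and 69.5, 38.4 and 119.9 CPM at 3 or more.

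In the same split the MHC class II genes summed to 23824 CPM at 0 Mrc1 UMIs, 26496 at 1, 22578 at 2 and 17639 at 3 or more. Cd74, the invariant chain, was at 6107 CPM in the cells with 3 or more Mrc1 UMIs and 9566 CPM in the gate-zero cells. The lysosome genes summed to 17996, 25791, 28218 and 28560 CPM from 0 to 3 or more, with most of the difference between 0 and 1. Median depth was 3713, 4519.5, 5183 and 5102 UMIs and the hormone share 7.60, 5.61, 5.57 and 5.12%, so both differed between these classes as well, and their part in these levels was not tested. With only 64 cells in the highest class, levels differed widely between sets: Pf4 from 108 to 191 CPM and Fcrls from 412 to 1252 CPM.

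**Figure D5:**
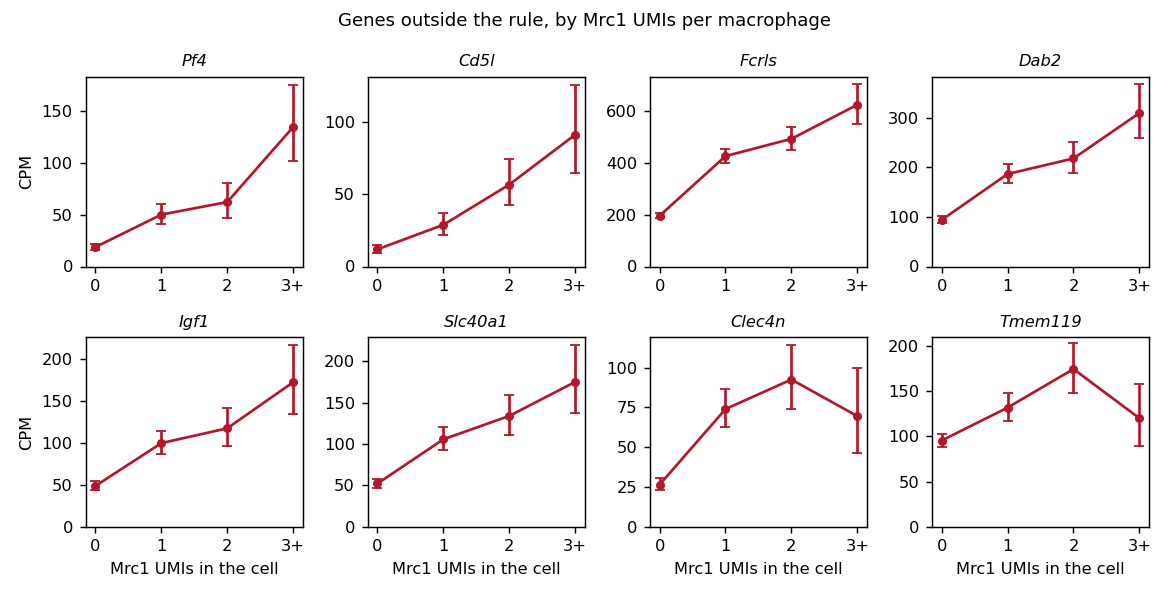
CPM of 8 genes outside the rule in macrophages by the number of Mrc1 UMIs in the cell, with exact 95% Poisson intervals. Cells with other gate genes are left out, and the class with 0 is the gate-zero group. Pf4 reads 18.7, 49.9, 62.0 and 134 CPM from left to right, and Clec4n and Tmem119 are highest at 2.

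The 27 cells with an F13a1 UMI differed from the other gate-positive cells in their pooled counts of monocyte genes. They held all 59 UMIs of Ly6c2 and all 29 of Chil3 found in gate-positive cells, and 138 of the 153 of Plac8, which are genes of classical monocytes in mice. At least 2 of the 5 monocyte markers Ly6c2, Ccr2, Plac8, Vcan and Chil3 were detected in 8 of the 27, against 1 of the other 580 and 17 of the gate-zero cells. The median number of monocyte genes detected per cell was 0 in both the 27 and the 580. Scrublet marked 5 of the 27 and 67 of the 580. C1qa was at 2547 CPM in the 27 cells and 4093 CPM in the other gate-positive cells, and Tmem119 at 9.91 and 135 CPM. Pf4 was at 619 CPM in the 27 cells, which held 125 of its 356 UMIs, and at 64.5 CPM in the other gate-positive cells, still above the 18.7 CPM of gate-zero cells. Cd5l had 0 UMIs in the F13a1 cells. The monocyte list as a whole summed to 755 CPM in gate-positive and 786 CPM in gate-zero cells. Of its 10 tested genes 0 were called, beside 0.341% of all tested genes called higher and 1.94% lower. At any size, 0 were higher and 2 lower in all 4 sets, compared with 9.96% and 18.7% of all tested genes.

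The 13 cells with a Cd163 UMI had Pf4 at 239 CPM, and 9 of the 13 carried Mrc1 as well. A single cell held 65.7% of their Ccl7 UMIs. The 4 cells with a Lyve1 UMI had no other gate gene. They had a median of 18430 UMIs, hormone genes at 11.0% of UMIs and C1qa at 526 CPM, against 3.87% hormone genes and 2547 CPM of C1qa in the F13a1 cells, and Scrublet marked 2 of the 4. Mmrn1, a lymphatic endothelial gene, had 6 UMIs in them, all in 1 cell, and Ccl21a, another gene of that list, had none in any gate-positive cell. Prox1, the factor that specifies lymphatic endothelium, was detected in 3 of these 4 deep cells, but also in 12.4% of all gate-positive and 10.7% of gate-zero cells, at 37.8 and 38.3 CPM.

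Several genes of other pituitary cell types were among those called lower in gate-positive cells, which were 1.94% of all tested genes. Pomc, the precursor of corticotropin and melanocyte-stimulating hormone, had 1408, 1228, 2263 and 2255 CPM in gate-positive cells, against 6495, 7430, 10722 and 5539 CPM in gate-zero cells (log2 ratio -2.14). A single cell held 22.5% of its gate-positive and 11.8% of its gate-zero UMIs. Of 6 fibroblast genes 3 were called lower (Col1a1, Col3a1 and Dcn), and the 6 summed to 87.7 CPM in gate-positive cells, with 48.7 to 193 CPM over the sets, against 247 CPM in gate-zero cells, with 145 to 299 CPM. Dcn, the matrix proteoglycan decorin, had 17.3, 17.7, 22.9 and 141 CPM in gate-positive cells, against 180.0, 70.2, 152 and 153 CPM in gate-zero cells, and 1 cell held 62.1% of its gate-positive UMIs. Mgp, matrix Gla protein, was at 62.4 CPM in gate-positive and 216 CPM in gate-zero cells, and Cxcl12, a stromal chemokine, at 11.1 and 32.2 CPM.

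The hormone cell list summed to 58819 CPM in gate-positive cells, with 43558 to 75986 CPM over the sets, against 79307 CPM in gate-zero cells, with 70035 to 89575 CPM. Gh, the most abundant hormone gene, was at 31184 CPM in gate-positive and 36035 CPM in gate-zero cells and was not called. Of 10 endothelial genes 0 were called, beside 0.341% of all tested genes called higher and 1.94% lower. In all 4 sets 6 were lower and 0 higher at any size, compared with 18.7% and 9.96% of all tested genes. The median log2 ratio of the 10 endothelial genes was -0.62. They summed to 484 CPM in gate-positive cells, with 232 to 656 CPM over the sets. In gate-zero cells they summed to 781 CPM, with 629.6 to 1119 CPM. Hbb-bs, a haemoglobin chain with near-identical copies, was at 17.7 CPM in gate-positive and 213 CPM in gate-zero cells, where 1 cell held 61.1% of its UMIs. Igkc, an antibody light chain gene, had 7 UMIs in gate-positive and 5786 in gate-zero cells and was lower in 3 of 4 sets, so it was not called. Cd24a, listed with dendritic cells and also expressed by epithelial and stem cells, was at 52.1 CPM in gate-positive and 116 CPM in gate-zero cells. Of 9 tested dendritic genes Cd24a was the only call, beside 1.94% of all tested genes called lower. In all 4 sets 3 were higher and 2 lower at any size, compared with 9.96% and 18.7% of all tested genes. The list's median log2 ratio was -0.30. The full list summed to 1102 CPM in gate-positive and 959 CPM in gate-zero cells, and its defining genes Flt3 and Xcr1 had no UMI in gate-positive cells. The part of these other cell types in the ratios was not tested. Among macrophages with hormone genes under 5% of UMIs, 26 genes were called higher and 406 lower, with Pf4 at a log2 ratio of 2.25 and Pomc at -1.37.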

How the data were processed

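The deposited matrix holds the authors' UMI counts per gene and barcode for the 4 pooled libraries, made with Cell Ranger 8.0.1 per the file headers. The submitters' processing notes also name Seurat, and no source used here gives the genome build or the strand setting. The matrix lists 55357 gene IDs. Barcode sets had 81621358 to 92665029 UMIs in 9929 to 10212 barcodes.

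Counts were summed over cells and divided by the summed total (CPM). Calls needed a 2-fold difference of the pooled levels, the same direction at any size in 4 of 4 barcode sets, and at least 50 UMIs. The 10 rule genes were left out of calls. A ratio against 0 counts used a floor of 3 counts, and a floor that pointed the other way gave no ratio. No test was made, because no label ties a barcode set to a library. The cells and gene lists were chosen with earlier results of these data known.

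Named genes were, from each list, up to 4 past 2-fold with at least 100 UMIs, and over all genes the 12 highest and 12 lowest ratios with at least 200 UMIs, all in 1 direction in 4 sets. The most abundant gene of each list of another cell type was also named. Genes named beyond this rule, as list members, were chosen after their values were seen.

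Scrublet (scanpy 1.11.5) ran per set with an expected doublet rate of 8%. At its default rate it had marked 0 barcodes in sets 1 and 4, so the rate was changed after that result was seen. It then marked 7.46, 8.27, 9.61 and 5.10% of barcodes in sets 1 to 4. The doublet calls served as an alternative only. The counting was tested on simulated data. Gene overlaps came from GENCODE and promoter sequences from RefSeq. Alternatives were other gate thresholds and genes, depth ranges, thinning, cell filters, doublet removal, library size, cell weighting and leaving out each barcode set. Gating on Mrc1 alone and limiting hormone genes to 5% of UMIs were added after the data had been seen.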

Additional observations from a re-analysis of the deposited data

How the results depend on the processing

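No paired analysis was possible because the labels number the libraries and the barcodes carry no such number. The share of gate-positive macrophages, 30.2%, was 11.7% with at least 2 gate UMIs, 4.37% with at least 3, 11.0% after thinning to 1000 UMIs, 36.3% at 2000 to 8000 UMIs, 34.1% with at least 1000 UMIs and 10% mitochondrial UMIs at most, 32.9% with Gh under 5%, and 35.0% with hormone genes under 5% of UMIs. The 41 genes called higher became 65 with at least 2 gate UMIs, 116 with at least 3, 24 at 2000 to 8000 UMIs, 83 by the mean of per-cell CPM, 122 with no minimum of UMIs and 26 with hormone genes under 5%. The 233 called lower became 411, 740, 565 without Scrublet-marked cells, 366 by per-cell mean, 700 with no minimum and 406 with hormone genes under 5%. The perivascular genes called higher, 8, were 4 after thinning (Cp not among the 8), 9 with at least 2 gate UMIs and 12 with at least 3, and no alternative called a microglia gene lower. Leaving out each barcode set gave shares of 28.8 to 31.3%, 40 to 53 genes higher, 239 to 272 lower and 5 to 9 perivascular genes higher, the 5 being without set 2. Of the 41 genes, 6 were also called after thinning, 13 at 2000 to 8000 UMIs and 30 without marked cells. The 233 shared 6, 18 and 117. Pdpn, a podoplanin gene of lymphatic endothelium, reversed to a log2 ratio of 1.02 after thinning, from -1.32. Among the 6 macrophage genes of the rule, Aif1 turned to -0.15 by per-cell mean, from 0.31. The causes were not tested. The other named genes that had been called kept their direction in every setting that gave a ratio. Most gate-positive cells rest on 1 UMI, so the gate splits detection at this depth.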

Other observations

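Further lists gave few calls in gate-positive macrophages, beside 0.341% of all tested genes called higher and 1.94% lower. Of 10 Fc receptor and adaptor genes 0 were called, with a median log2 ratio of 0.37. Fcgr3, a low-affinity receptor for antibody, was at 362 CPM in gate-positive and 243 CPM in gate-zero cells. Of 12 complement genes C4b was the only call. C5ar1, the receptor for the C5a fragment, was at 118 CPM in gate-positive and 80.7 CPM in gate-zero cells. Of 18 interferon-induced genes 0 were called, and they summed to 2997 CPM in gate-positive and 2584 CPM in gate-zero cells. Of 20 immediate early and dissociation-response genes 0 were called, with a median log2 ratio of 0.04. Of 10 proliferation genes 0 were called, and they summed to 558 CPM in gate-positive and 577 CPM in gate-zero cells. Of 20 growth factor and remodelling genes Igf1 was the only call. Spp1, osteopontin, was at 41.8 CPM in gate-positive and 101 CPM in gate-zero cells and was lower in 3 of 4 sets, so it was not called.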
